A study of Danio rerio with 12 samples.

Results

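The genes of monoamine signalling make, store, take up, break down and sense serotonin, dopamine, noradrenaline and histamine. They were taken from the brain expression tables by symbol: every row named as a serotonin, dopamine, adrenergic or histamine receptor, and a fixed set of enzymes and transporters. That gave 55 genes of 32674 rows, namely 40 receptors, 8 genes of synthesis, 4 transporters and 3 genes of breakdown. By amine, 20 belonged to serotonin, 10 to dopamine receptors, 15 to noradrenaline and 3 to histamine. A further 4 were counted under all catecholamines by name, and 3 were shared by several amines. The dopamine transporter slc6a3 was also on the list, but no row carried that symbol, so the gene is not a member.

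RNA was sequenced from brains of adult zebrafish (Danio rerio) of the EK strain, of the F3 generation counted from the exposed eggs as F1. Those eggs had been kept for 24 h in either 0.03 µM methylmercury (MeHg, an organic mercury compound that reaches the brain) or 0 µM, both with ethanol as vehicle, and the F2 and F3 generations were not exposed. The labels list 12 samples, 6 of each lineage, and 11 named libraries were used here, 5 of the control lineage (replicates 2, 4, 5, 6 and 8) and 6 of the MeHg lineage (replicates 1, 2, 4, 5, 7 and 8). Neither the sex of the fish, nor the number of brains in a sample, nor the hour of collection stands on the labels, so p-values measure the spread between these samples and hour and lineage cannot be told apart.

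Monoamines are released by small groups of neurons whose fibres reach most of the brain. Serotonin neurons sit in the raphe of the hindbrain and, in fishes, also in the hypothalamus, noradrenaline neurons in the locus coeruleus and medulla, histamine neurons in the hypothalamus, and dopamine neurons in several forebrain groups. Serotonin and the catecholamines are made from an amino acid by a hydroxylase and then a decarboxylase, and histamine from histidine by a decarboxylase alone. They are packed into vesicles and broken down by oxidation or methylation, and serotonin, dopamine and noradrenaline are each cleared by a transporter of their own in the cell membrane. The receptors are spread over many neurons that make no amine, and all but the htr3 ion channels act through G proteins.

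Across both lineages the brain held messages of every amine, and no member passed the test of a lineage difference. Of the 55 genes, 41 had enough reads to be tested, and 0 of these passed a limma adjusted p of 0.05 over all 16364 tested genes, where 0.269% of genes passed (0.171% with the MeHg lineage lower). At an unadjusted p under 0.05 there were 3 of 41 members (7.32%, against 6.61% of all genes, 3.3% with the MeHg lineage lower), the serotonin receptor genes htr5al and htr1ab and the histamine synthesis gene hdc, all with lower means in the MeHg lineage. The same test by voom with sample quality weights also called 0 members. The largest fold difference among the tested members was 1.84, for htr5al, and standard errors of the log2 fold change ran from 0.14 to 0.76. In brain tissue measured in bulk, fewer cells of a type and less RNA per cell cannot be told apart.

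Values are given on a pair of scales. A scaled count is the number of fragments assigned to a gene after division by 1 size factor per library, and it serves comparisons of 1 gene between libraries. FPKM (fragments normalised for both gene length and sequencing depth) serves comparisons between genes. The size of the smallest step in each library put its depth between 2062500 and 7504250 fragments, so that a floor of 3 fragments equals a scaled count of 6.86 in control replicate 2, which had the fewest fragments, and of 2.01 in MeHg replicate 5, which had the most. Markers of the labelled tissue were present in every library, with summed FPKM of 2224 to 3206 for 7 neuron genes and 36.4 to 70.3 for 9 genes of monoamine neurons. Some libraries stood apart in other ways. Control replicate 4 had a summed FPKM of 10794 for 12 epidermis genes and MeHg replicates 4 and 5 of 4947 and 7841, against 210 to 1267 elsewhere. MeHg replicate 4 also had a summed FPKM of 4865 for 8 pituitary genes and 3553 for 14 muscle genes. MeHg replicate 8 had 4136 for 9 retina and pineal genes, against 30.4 to 391 in the other libraries. Control replicate 5 and MeHg replicate 8 were low in 4 genes of the pallium, the roof of the forebrain, at 13.0 and 10.8 against 43.1 to 112, and emx3 was at 0 in control replicate 5. Summed FPKM of 4 hox genes of the hindbrain and spinal cord also varied widely. It was 1.31 and 1.85 in control replicates 6 and 4, 25.2 and 29.0 in control replicates 8 and 5, and 4.14 to 21.0 in MeHg libraries. The part of these region markers in the levels of monoamine genes was not tested.

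Levels of the messages differed more between genes than between lineages. The histamine autoreceptor gene hrh3 had the highest mean level, 25.2 ± 13.7 FPKM in the control lineage and 25.6 ± 9.56 in the MeHg lineage (SD, n = 5 and 6). Next came mao, whose product oxidises monoamines, at 19.9 ± 0.803 and 18.8 ± 3.81 FPKM, and the noradrenaline autoreceptor gene adra2c at 18.1 ± 5.96 and 14.7 ± 4.95. Over all libraries hrh3 ran from 5.85 to 42.9 FPKM, mao from 14.8 to 23.6 and adra2c from 6.18 to 24.7. These ranges overlap, so the order among these genes is not fixed. The serotonin autoreceptor gene htr1aa stood at 15.0 ± 2.50 and 11.7 ± 2.68 FPKM, and the serotonin synthesis gene tph2 at 12.8 ± 5.59 and 10.7 ± 2.99.

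The catecholamine hydroxylase gene th had a mean of 9.42 ± 4.35 FPKM in the control lineage and 6.91 ± 2.02 in the MeHg lineage (SD, n = 5 and 6). At the low end, 14 members did not reach the filter, 12 receptors, the second serotonin transporter gene slc6a4b and tph1b, a copy of the serotonin hydroxylase gene. Their means over all libraries were 0.054 to 1.07 FPKM, which rest on 1 to 76 fragments in all libraries together, and 9 of them were at 0 in at least 1 library. The ion channel genes htr3a and htr3b were lowest, with 1 and 2 fragments. Tested members lay at 1.73 to 25.4 FPKM and rested on 128 to 4324 fragments. Every tested member had at least 3 libraries of each lineage at a scaled count of 10 or more.

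**Figure D1:**
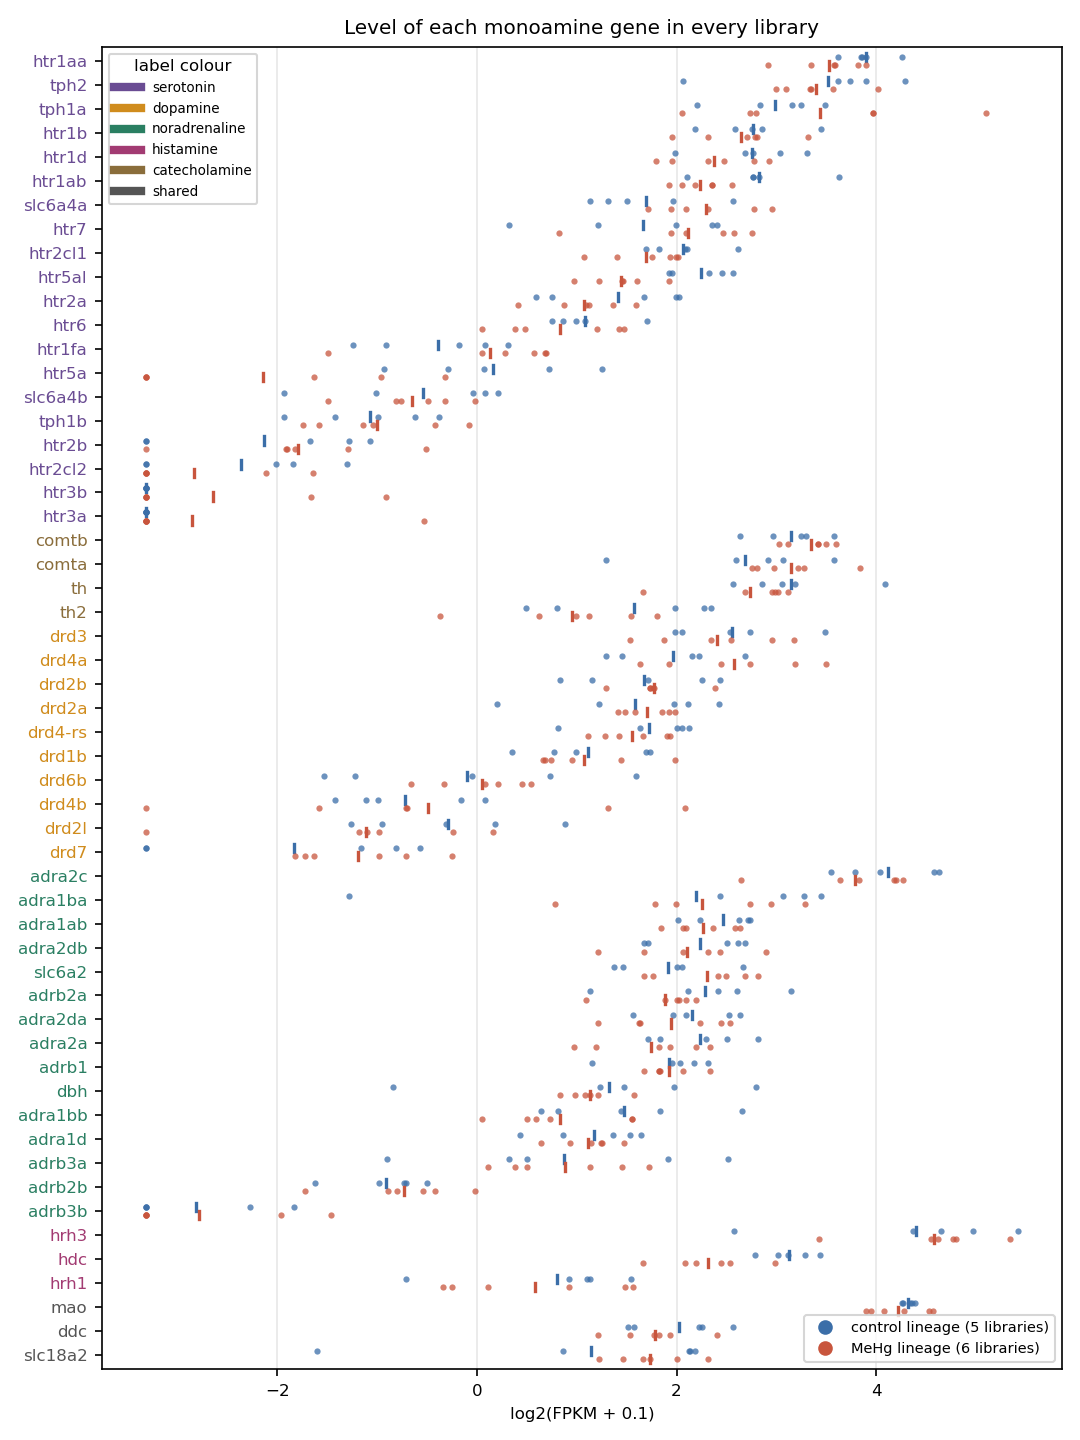
Level of each of the 55 monoamine genes in every library, as log2(FPKM + 0.1) on the horizontal axis, grouped by amine and sorted by level. Points are libraries, blue for the 5 control and red for the 6 MeHg libraries, and vertical ticks are means of each lineage on that log2 scale. The points of both lineages lie over each other for most genes, hrh3 and mao lie at the high end, and htr3a and htr3b at the low end.

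Serotonin is made by tryptophan hydroxylase. The gene of the neuronal enzyme, tph2 (ENSDARG00000057239), had scaled counts of 167, 43.5, 142, 218 and 135 in control replicates 2, 4, 5, 6 and 8. In the MeHg libraries they ran from 84.8 through a median of 110 to 179. Control libraries held both the lowest and the highest value, and all MeHg values fell between them. The log2 fold change, MeHg minus control on log2(scaled count + 1), was -0.13 ± 0.35 (SE; adjusted p = 0.956 by limma), with a 95% interval of -0.88 to 0.63. Without control replicate 4 the value was -0.50 ± 0.22, and without control replicate 6 it was 0.07 ± 0.35, so sign and size rest on single libraries. The scale understates differences of genes with few reads.

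The copy tph1a is known in zebrafish from the pineal organ, the retina and the hypothalamus. Its scaled counts were 75.4, 38.8, 60.6, 96.7 and 81.3 in the control libraries and 59.0, 134, 56.7, 34.8, 134 and 296 in MeHg replicates 1, 2, 4, 5, 7 and 8. The highest value was that of MeHg replicate 8, the library with the highest retina and pineal markers. The lowest values, in MeHg replicate 5 and control replicate 4, came from the libraries with the lowest sums of those markers, 30.4 and 32.0 FPKM. Their part in the level of tph1a was not tested. The log2 fold change was 0.45 ± 0.47 (SE; adjusted p = 0.909 by limma) with all libraries, 0.12 ± 0.39 without MeHg replicate 8, 0.25 ± 0.50 without control replicate 4 and 0.73 ± 0.43 without MeHg replicate 5.

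The serotonin transporter gene slc6a4a (ENSDARG00000061165) clears serotonin from the space outside the cell. Control scaled counts were 22.9, 31.1, 27.2, 66.8 and 36.0, and MeHg values ran from 36.2 through a median of 51.5 to 87.2. Each MeHg library lay above 4 of the 5 control libraries, and control replicate 6, the second highest of all, made the lineages overlap. The log2 fold change was 0.62 ± 0.30 (SE; adjusted p = 0.777 by limma, with a 95% interval of -0.02 to 1.27), and 0.86 ± 0.27 without control replicate 6. The highest value, 87.2, was that of MeHg replicate 8. Over 26 alternative settings the log2 fold change lay between 0.40 and 0.93, and was lowest without both control replicate 5 and MeHg replicate 8. As log2(FPKM + 0.1) over the 11 libraries, the values of tph2 and slc6a4a had a Pearson r of 0.04 and a Spearman rho of -0.20 (two-sided permutation tests, p adjusted over 4 pairs = 0.905 and 0.776), and r was -0.61 without the 2 libraries farthest from the median of tph2. No correlation between the enzyme and the transporter of the same neurons passed the test over these libraries.

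Among the tested serotonin receptors, htr5al (ENSDARG00000068557) differed most between lineages. Its name marks it as like the 5A receptor gene, whose mammalian product acts through inhibitory G proteins, and the reference table gives htr5ab as its other symbol. Scaled counts were 59.4, 45.1, 71.1, 66.0 and 46.2 in the control libraries and 32.2, 32.5, 22.7, 44.9, 24.6 and 29.1 in the MeHg libraries. Every MeHg library lay below every control library, but MeHg replicate 5, at 44.9, nearly touched control replicate 4, at 45.1. Of the 41 tested members htr5al was the only one without overlap, and 1.37% of all tested genes had none, 0.739% with the MeHg lineage lower. The means were 57.6 ± 11.7 (SD, n = 5) and 31.0 ± 7.87 (SD, n = 6). The log2 fold change was -0.88 ± 0.22 (SE; adjusted p = 0.221 by limma, with a 95% interval of -1.37 to -0.40), so the gene did not pass over all genes. Over 26 alternative settings it lay between -0.99 and -0.60, and the adjusted p by limma between 0.134 and 0.951. The value nearest to 0 was the one without scaling between libraries, which raised the median of all tested genes.

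A relative, htr5a, also named htr5aa in the reference table, was too low for the test and is described because of its values, which were seen first. Control replicates 2, 4, 5, 6 and 8 held 4, 3, 1, 15 and 4 implied fragments, 27 in all, and MeHg replicates 1, 2, 4, 5, 7 and 8 held 0, 0, 1, 0, 2 and 3, or 6 in all. It was above 0 in each control library and at 0 in 3 MeHg libraries. Set against depth, the MeHg to control ratio was 0.163 (95% interval 0.0550 to 0.403, for counting error only). In a fit with no filter its log2 fold change was -1.82 ± 0.56 (SE; adjusted p = 0.565 by limma).

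The duplicated 1A receptor genes htr1aa and htr1ab encode inhibitory receptors that serotonin neurons also carry on themselves. Scaled counts of htr1ab (ENSDARG00000057098) were 50.3, 29.5, 81.5, 49.1 and 49.0 in control libraries, and ran from 26.6 through a median of 34.2 to 41.8 in MeHg libraries. Control replicate 4 lay among the MeHg values and control replicate 5 far above the rest. The log2 fold change was -0.55 ± 0.25 (SE; adjusted p = 0.743 by limma) and -0.37 ± 0.22 without control replicate 5. For htr1aa, control values were 133, 112, 176, 137 and 133 and MeHg values ran from 69.1 through 110 to 137, and the log2 fold change was -0.37 ± 0.19 (SE; adjusted p = 0.804 by limma). Both copies were highest in control replicate 5. Of the FPKM of the pair, htr1aa held 67.8% ± 4.83 in the control lineage and 71.1% ± 4.48 in the MeHg lineage (SD, n = 5 and 6), a difference of 3.20 points within the spread (two-sided exact permutation p = 0.281, or 0.922 adjusted over the 5 pairs).

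Of the 9 tested serotonin receptors, 8 had negative log2 fold changes, with a median of -0.35, whereas 45.7% of all tested genes were negative, with a median of 0.03. Without scaling between libraries 7 of 9 were negative, with a median of -0.09, but that setting moved the median of all genes to 0.31. Without MeHg replicates 4 and 8, the libraries high in pituitary or pineal markers, 6 of 9 were negative, with a median of -0.26. The count was 7 of 9 without control replicate 2 or without MeHg replicate 4, and 8 of 9 in every other setting. The genes are not independent of each other, since they were measured in the same 11 libraries. The inhibitory receptor genes htr1d and htr1b stood at -0.38 ± 0.29 and -0.12 ± 0.28, and htr6, which raises cyclic AMP, at -0.26 ± 0.35 (SE; adjusted p from 0.877 to 0.950 by limma). The positive one was htr7, also coupled to cyclic AMP, at 0.44 ± 0.44 (SE; adjusted p = 0.904 by limma). Without control replicate 5, which had the lowest htr7 value, it was 0.12 ± 0.37. The sign of htr1b turned without control replicate 2 (0.05 ± 0.28) or MeHg replicate 4 (0.02 ± 0.27), and htr6 was at -0.11 ± 0.37 without control replicate 8. Summed over all 15 serotonin receptors, FPKM was 61.4, 42.0, 61.2, 58.6 and 55.9 in control libraries and 46.1, 44.7, 32.2, 43.2, 52.6 and 47.2 in MeHg libraries. Control replicate 4 fell among the MeHg libraries and the other control libraries lay above all of them.

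**Figure D2:**
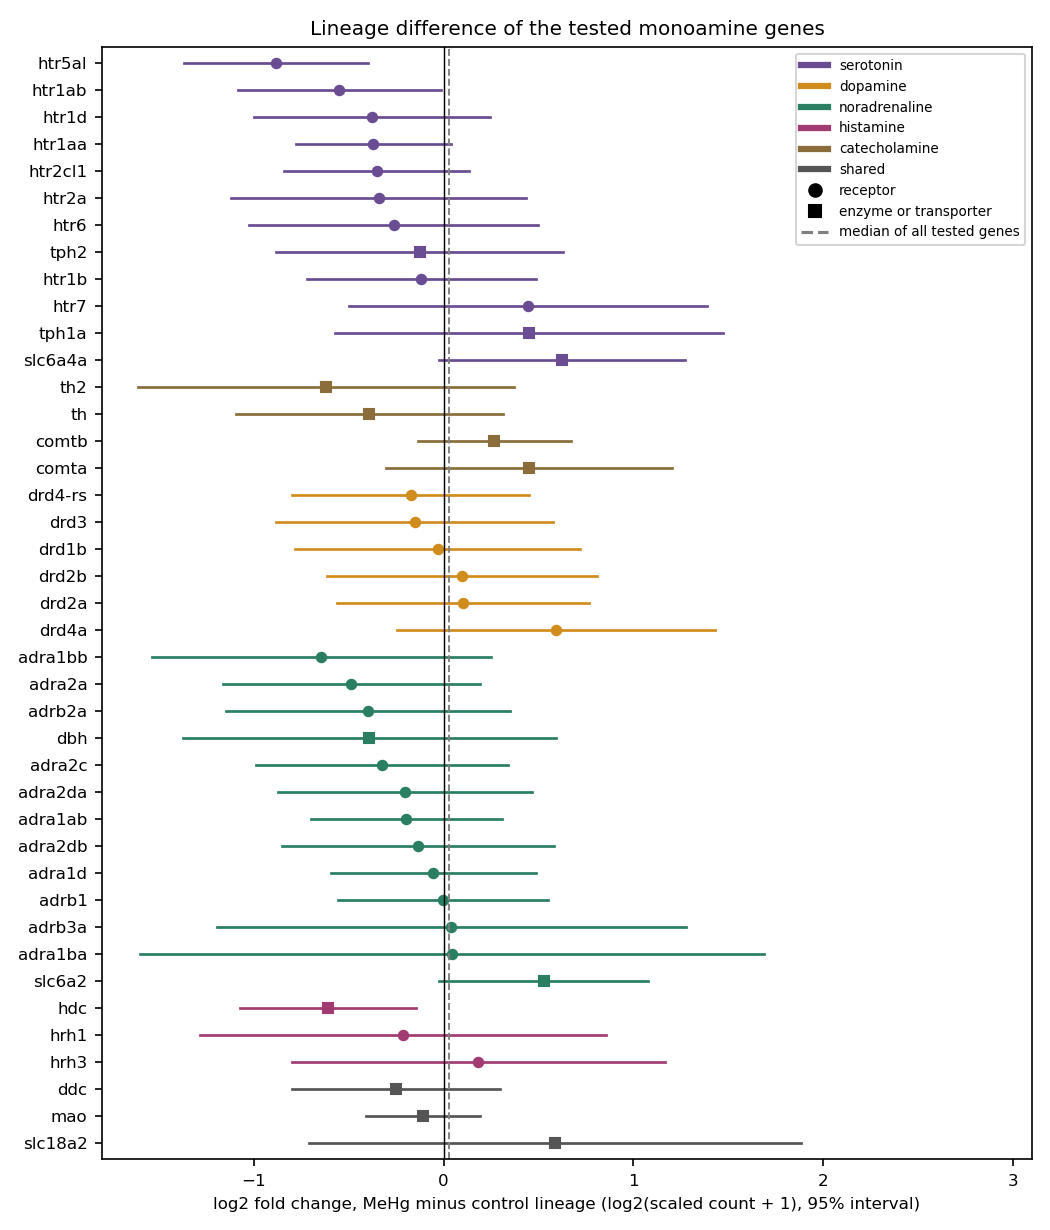
Log2 fold change of the 41 tested members, MeHg minus control lineage on log2(scaled count + 1), with 95% intervals from limma, coloured by amine (circles, receptors; squares, enzymes and transporters). The dashed line marks the median of all tested genes, 0.03. The intervals of htr5al, htr1ab and hdc lie below 0, all others cross it, and the purple circles of the serotonin receptors lie left of it except htr7.

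Catecholamines start from tyrosine hydroxylase. For th (ENSDARG00000030621), control scaled counts were 52.6, 38.8, 48.1, 118 and 61.9, and MeHg values were 59.0, 53.1, 20.4, 46.9, 49.1 and 54.5. Control replicate 6 was highest, MeHg replicate 4 lowest, and the remaining 9 libraries lay together at 38.8 to 61.9. For this gene the log2 fold change was -0.39 ± 0.32 (SE; adjusted p = 0.886 by limma), and it was -0.17 ± 0.27 without MeHg replicate 4 and -0.14 ± 0.30 without control replicate 6. The gene th2 of fishes, counted here with the catecholamines by its name alone, was less abundant. It had scaled counts of 32.0, 10.9, 41.8, 13.8 and 39.7 in control libraries and from 5.67 through a median of 16.6 to 28.3 in MeHg libraries, and the log2 fold change was -0.62 ± 0.46 (SE; adjusted p = 0.870 by limma). Without MeHg replicate 4 it was -0.36 ± 0.42. The control libraries of th2 fell into a low pair, replicates 4 and 6, and a higher set of 3, so its spread was wide.

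The decarboxylase gene ddc, used for serotonin and catecholamines alike, had means of 93.4 ± 29.5 (SD, n = 5) and 77.8 ± 22.9 (SD, n = 6), and the log2 fold change was -0.25 ± 0.25 (SE; adjusted p = 0.906 by limma). It was -0.38 ± 0.26 without control replicate 4, -0.11 ± 0.26 without control replicate 6, -0.13 ± 0.25 without MeHg replicate 4 and -0.38 ± 0.24 without MeHg replicate 8. The vesicle transporter gene slc18a2 loads all monoamines into vesicles. In control libraries it had scaled counts of 38.9, 15.5, 2.09, 40.7 and 38.8, and from 20.4 through 28.7 to 44.2 in MeHg libraries. Control replicate 5 held 1 fragment of it and stood far below every other library, although th, ddc and tph2 in that library were within the range of the others. Its log2 fold change was 0.59 ± 0.60 with all libraries (SE; adjusted p = 0.908 by limma) and -0.09 ± 0.31 without control replicate 5, so the sign rests on that library.

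Noradrenaline is formed from dopamine by dopamine beta-hydroxylase. The gene dbh had scaled counts of 20.6, 4.66, 46.0, 15.4 and 25.9 in control libraries and stayed between 9.83 and 17.4, with a median of 14.2, in MeHg libraries. All 6 MeHg values fell inside the control range. Between lineages the log2 fold change was -0.39 ± 0.45 (SE; adjusted p = 0.917 by limma) with all libraries, -0.83 ± 0.33 without control replicate 4 and -0.07 ± 0.41 without control replicate 5. The noradrenaline transporter gene slc6a2 (ENSDARG00000016141) had scaled counts of 119, 68.4, 73.2, 68.3 and 112 in control libraries and from 84.8 through 119 to 192 in MeHg libraries. No MeHg library was as low as control replicates 4, 5 and 6, and the lineages overlapped between 84.8 and 119. Its log2 fold change was 0.53 ± 0.25 on scaled counts (SE; adjusted p = 0.777 by limma) and 0.40 ± 0.29 on FPKM. Over 26 alternative settings it lay between 0.30 and 0.81. The scaled count per FPKM of slc6a2 varied from 17.5 to 27.5 between libraries, with the low ratios in control replicates 2 and 6 and MeHg replicate 7.

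For breakdown, mao (ENSDARG00000023712) was the steadiest member, with control scaled counts of 487, 465, 497, 464 and 507. MeHg values ran from 360 through a median of 437 to 573, above and below every control library. In limma the log2 fold change was -0.11 ± 0.14 (SE; adjusted p = 0.924 by limma), with a 95% interval of -0.41 to 0.19, the narrowest of any member. The methyltransferase genes comta and comtb had log2 fold changes of 0.45 ± 0.35 and 0.27 ± 0.19 (SE; adjusted p = 0.879 and 0.857 by limma). For comta, control replicate 2 was lowest of all at 11.4 and MeHg replicate 1 highest at 65.7, and without the former the log2 fold change was 0.13 ± 0.27. For comtb it was 0.16 ± 0.17 without control replicate 5.

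By role, 6 of 7 tested synthesis genes had negative log2 fold changes and 3 of 3 transporters positive ones, with medians of -0.39 and 0.59. Of all tested genes, 45.7% were negative. Without scaling, which raised the median of all tested genes, 4 of 7 synthesis genes were negative. The synthesis median was -0.17 without MeHg replicate 4 and -0.14 (5 of 7 negative) without control replicate 6. Without control replicate 5, 2 of the 3 transporters were positive, with a median of 0.47, and by voom also 2 of 3, with a median of 0.41. Leaving out replicates 4 and 5 of both lineages, the libraries high in epidermis or muscle markers, gave 2 of 3 and 0.30. The remaining transporter gene, slc6a4b, did not reach the filter and stood at -0.11 ± 0.47 (SE) in a fit with no filter. The non-member row given as slc6a3 had mean scaled counts of 40.5 ± 10.5 in the control lineage and 36.2 ± 11.4 in the MeHg lineage (SD). No synthesis gene or transporter passed the threshold.

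**Figure D3:**
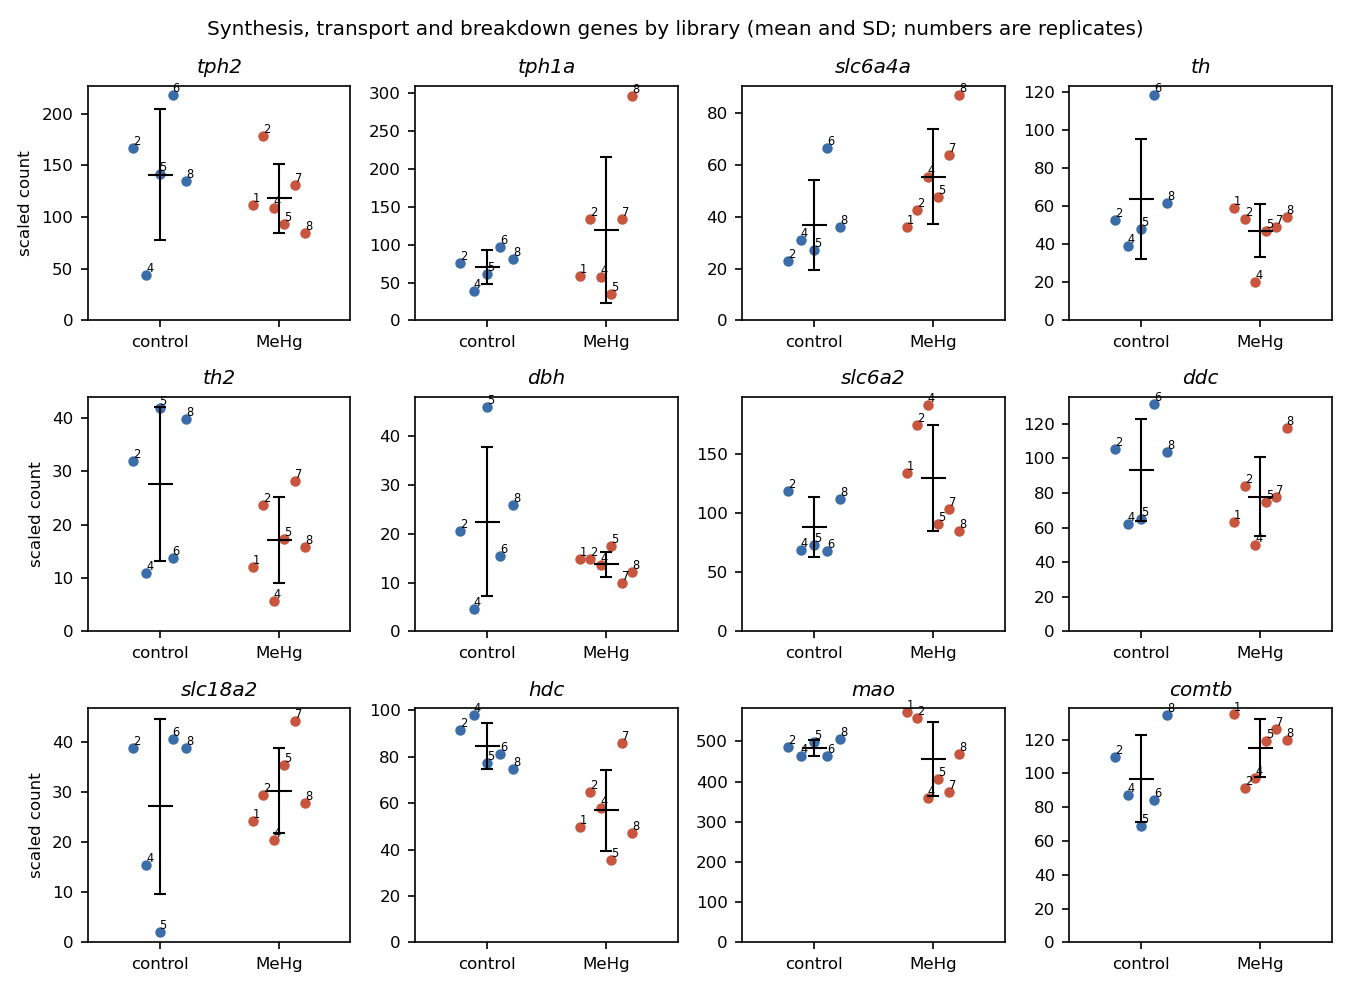
Scaled count of 12 synthesis, transport and breakdown genes in each library, on axes that start at 0. Points are libraries with their replicate number, horizontal bars the mean of each lineage and vertical bars the SD. Replicate 8 of the MeHg lineage stands out for tph1a, control replicate 5 for slc18a2 and dbh, and control replicate 6 for th.

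Of the 6 tested dopamine receptors, 3 had negative and 3 positive log2 fold changes, with a median of 0.03. Without scaling, which raised the median of all tested genes as well, 0 of 6 were negative, with a median of 0.29. The values were 4 of 6 and -0.12 without control replicate 5, 4 of 6 and -0.05 without MeHg replicate 8, and 5 of 6 and -0.16 by voom. They were 5 of 6 and -0.19 without replicates 4 and 5 of both lineages. The most abundant were drd3 and drd4a, genes of inhibitory receptors of the D2 class. The gene drd3 (ENSDARG00000032131) had scaled counts of 68.6, 46.6, 132, 79.9 and 47.1 in control libraries and from 33.9 through 64.7 to 102 in MeHg libraries, and the log2 fold change was -0.15 ± 0.34 (SE; adjusted p = 0.948 by limma). The gene drd4a had 16.0, 9.32, 8.36, 23.03 and 15.7 in control libraries and from 10.7 through 21.3 to 40.0 in MeHg libraries, and the log2 fold change was 0.59 ± 0.39 (SE; adjusted p = 0.841 by limma). For drd3 the lineages overlapped over most of their range. For drd4a, MeHg replicates 5, 7 and 8, at 32.1, 23.3 and 40.0, lay above every control library. The other MeHg libraries fell within the control range of drd4a. The duplicates drd2a and drd2b, which encode D2 autoreceptors, were at 0.10 ± 0.31 and 0.10 ± 0.33, and drd4-rs at -0.17 ± 0.29 (SE; adjusted p from 0.937 to 0.963 by limma). Control replicate 5 held 14.6 of each of these 3 genes, and without it drd2a was at -0.20 ± 0.20, drd2b at -0.03 ± 0.33 and drd4-rs at -0.40 ± 0.24. Without it drd3 was at 0.08 ± 0.30. Summed over 10 dopamine receptors, FPKM was 25.5 ± 6.37 in the control lineage and 26.9 ± 6.25 in the MeHg lineage (SD, n = 5 and 6).

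Of 11 tested adrenergic receptors, 9 had negative log2 fold changes, with a median of -0.20, where 45.7% of all tested genes were negative. The values were 7 of 11 and -0.08 without MeHg replicate 8, and 7 of 11 and -0.05 without MeHg replicates 4 and 8. Without scaling, a setting that raised the median of all tested genes, 4 of 11 were negative, with a median of 0.08. The inhibitory receptor gene adra2c was the most abundant. Its scaled counts were 93.7, 112, 79.4, 166 and 171 in control libraries and from 42.4 through 110 to 133 in MeHg libraries, and the log2 fold change was -0.33 ± 0.31 (SE; adjusted p = 0.897 by limma). MeHg replicate 8 was lowest and the lineages overlapped, and without it the value was -0.10 ± 0.24. Its relatives adra2a and adra2db stood at -0.49 ± 0.31 and -0.14 ± 0.33, the alpha-1 genes adra1ab and adra1bb at -0.20 ± 0.23 and -0.64 ± 0.41, and the beta-2 gene adrb2a at -0.40 ± 0.35 (SE; adjusted p from 0.840 to 0.950 by limma). Leaving out control replicate 5 put adra1bb at -0.35 ± 0.37 and adrb2a at -0.68 ± 0.28, and leaving out MeHg replicate 8 put adra2db at 0.04 ± 0.31. Summed FPKM of all 13 adrenergic receptors was 61.99 ± 11.7 in the control lineage and 50.7 ± 12.3 in the MeHg lineage (SD, n = 5 and 6).

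The alpha-1 receptor gene adra1ba (ENSDARG00000011317) varied most among the members within lineages. Its scaled counts were 64.0, 35.7, 2.09, 73.7 and 56.4 in control libraries and 44.3, 51.7, 22.7, 26.1, 65.1 and 10.9 in MeHg replicates 1, 2, 4, 5, 7 and 8. Control replicate 5 held 1 fragment and MeHg replicate 8 held 9, and these were the libraries with the lowest pallium markers. The within-lineage SD was 1.45 on the log2 scale, at the 95.5th percentile of tested genes of like level, against a median percentile of 46.9 over the members. For this gene the log2 fold change was 0.04 ± 0.76 with all libraries (SE; adjusted p = 0.995 by limma), -0.79 ± 0.43 without control replicate 5 and -0.50 ± 0.33 without both. In control replicate 5 its duplicate adra1bb was at 58.5, the highest of any library, so that adra1ba held 4.77% of the FPKM of the pair, against 53.4% to 89.1% in the other 10 libraries. No copy share differed between lineages beyond the spread in any of 5 pairs of duplicates (exact permutation test, two-sided p from 0.281 to 0.922). How fragments shared by near-identical copies were counted is not given in the sources used here.

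Histamine in the brain comes from neurons of the hypothalamus that express histidine decarboxylase. For its gene hdc (ENSDARG00000075454), scaled counts were 91.4, 97.9, 77.3, 81.4 and 74.8 in control libraries and 49.6, 64.9, 57.8, 35.5, 86.0 and 47.3 in MeHg libraries. MeHg replicate 7 lay within the control range and the other 5 MeHg libraries below all controls. The means were 84.6 ± 9.76 (SD, n = 5) and 56.8 ± 17.4 (SD, n = 6), and the log2 fold change was -0.61 ± 0.21 (SE; adjusted p = 0.540 by limma, with a 95% interval of -1.07 to -0.15). It was -0.64 ± 0.22 without control replicate 5 and -0.33 ± 0.44 without scaling, a setting that raised the median of all tested genes. Its adjusted p by limma ran from 0.288 to 0.996 over the 26 settings.

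The inhibitory autoreceptor gene hrh3 (ENSDARG00000035942) had scaled counts of 146, 179, 41.8, 227 and 309 in control libraries and 166, 291, 195, 175, 198 and 76.3 in MeHg libraries. Its lowest values were again those of control replicate 5 and MeHg replicate 8. Between lineages the log2 fold change was 0.18 ± 0.45 (SE; adjusted p = 0.952 by limma) with all libraries and -0.04 ± 0.22 without those 2. The receptor gene hrh1, which acts through calcium release, was the least abundant tested member, at -0.21 ± 0.49 (SE; adjusted p = 0.949 by limma). Without control replicate 5, which held 4.18, it was -0.58 ± 0.42.

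**Figure D4:**
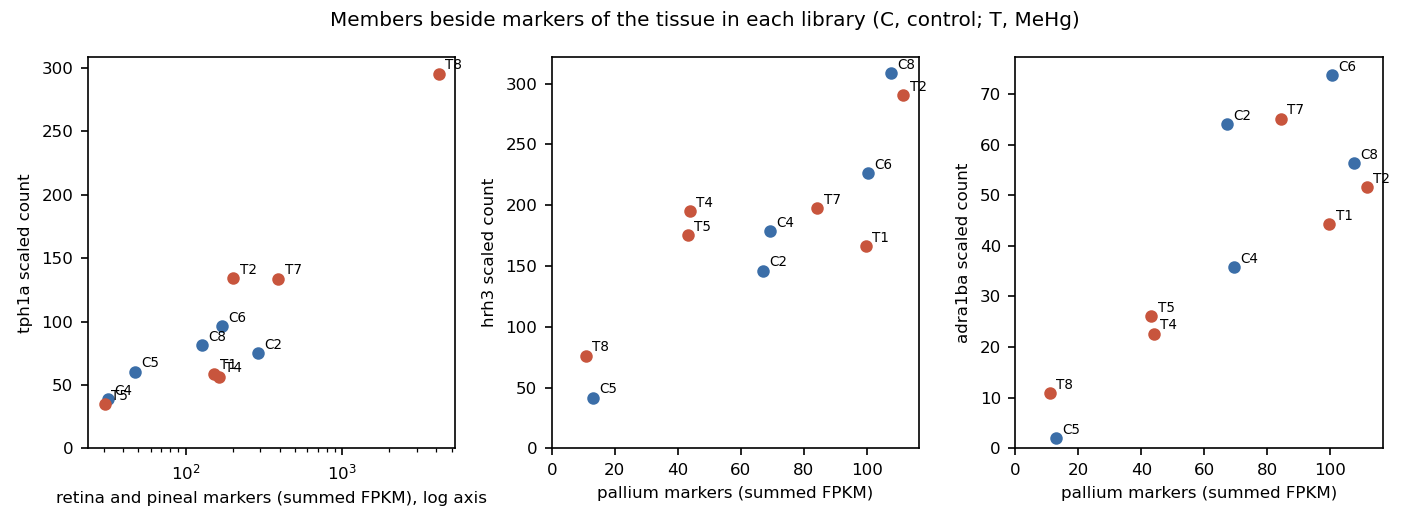
Scaled count of tph1a, hrh3 and adra1ba in each library (vertical axes) beside the summed FPKM of retina and pineal markers (log axis) or of 4 pallium markers (C, control; T, MeHg; numbers are replicates). MeHg replicate 8 is at the upper right for tph1a, and control replicate 5 and MeHg replicate 8 are at the lower left for hrh3 and adra1ba.

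These 3 genes were plotted against markers after their values were seen, and the part of the markers in them was not tested. Taking all 41 tested members, control replicate 5 was at least 2-fold below the median of the other libraries in 6 genes and above it in 6, each 14.6%. For all tested genes those shares were 20.04% and 6.67%. MeHg replicate 8 was below in 6 members (14.6%) and above in 4 (9.76%), against 3.42% and 2.96% of all genes. In 4 members both libraries were below, a count that was not made over all tested genes. MeHg replicate 4, the library with the pituitary markers, had the lowest value of any library in 9 of the 41 members, or 21.95%, against 9.61% of all tested genes. All 3 libraries were kept in the results above. Leaving out any 1 library in turn moved the log2 fold change by over 1.5 times, or turned its sign, in 33 of the 41 tested members, and turned the sign in 13. The 8 members it did not move so far were htr5al, htr1aa, htr1ab, slc6a4a, slc6a2, hdc, adra2a and drd4a. This rule is relative to the log2 fold change with all libraries. A member with a small one counts as moved even by shifts well within its SE, such as adrb1 at -0.0017 ± 0.26 (SE). The 8 unmoved members all ranked from 1 to 10 by unadjusted p in limma. The rule therefore cannot tell stability from a log2 fold change that is large against its SE. No share over all tested genes is given for it.

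**Figure D5:**
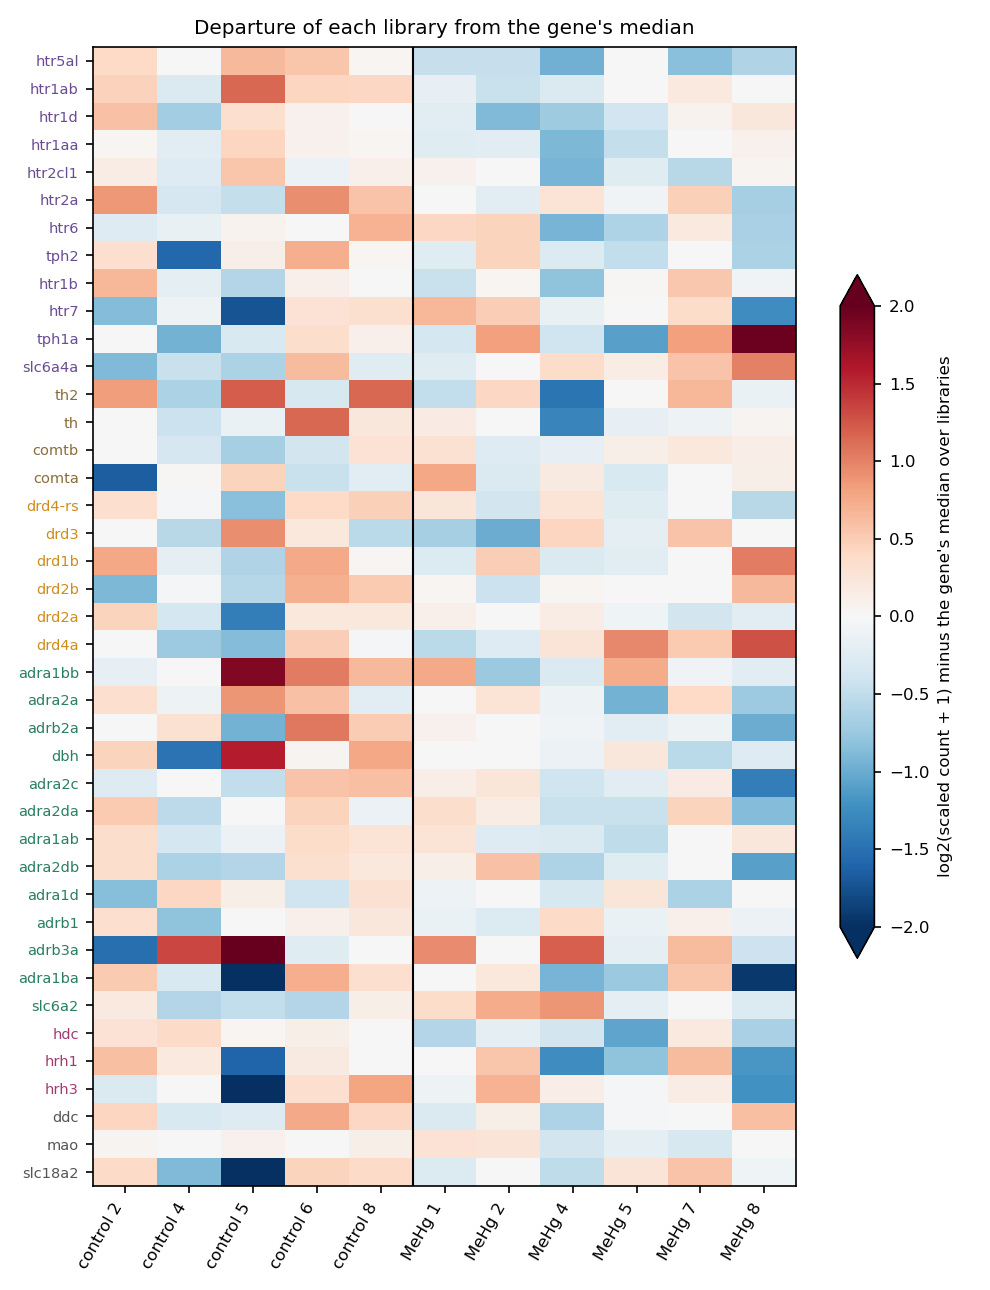
Departure of each library from the median over libraries for the 41 tested members, as log2(scaled count + 1) minus that median (blue, lower; red, higher; colours stop at 2). Columns are libraries, with the control lineage left of the black line. The row of htr5al is red or near white left of the line and blue or near white right of it, and the columns of control replicate 5 and MeHg replicate 8 hold several of the deepest cells.

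Beyond the members, a list of 60 further genes of the pathway covered the pterin cofactor, other uptake and breakdown, melatonin, neuron identity and receptor signalling. Of 34 tested, 0 passed in either direction by limma or voom, where 0.269% of all tested genes passed by limma. Their median log2 fold change was -0.04. An unadjusted p under 0.05 by limma was found in 3 of the 34, and in 6.61% of all tested genes. These were slc22a2, which encodes an organic cation transporter, at -0.76 ± 0.29, gata3, a transcription factor gene of serotonin neurons and other cells, at -0.47 ± 0.18, and ppp1r1b, the gene of the dopamine-regulated phosphatase inhibitor DARPP-32, at 0.75 ± 0.29 (SE; adjusted p from 0.640 to 0.661 by limma). The monoamine transporter gene slc29a4 stood at -0.37 ± 0.19 (SE; adjusted p = 0.808 by limma). The melatonin synthesis gene aanat2, which works in the pineal organ, had a scaled count of 1210 in MeHg replicate 8 and 8.70 to 183 in the other libraries.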

How the data were processed

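Paired-end RNA-seq libraries were processed with CASAVA 1.8.2, cutadapt, FastQC, TopHat, Cuffnorm and genome build Zv9, per the submitters' processing notes; settings are unknown from the sources used here. The authors deposited a table of signal values, read here as fragment counts divided by 1 size factor per library because in each library 98.2% to 98.9% of low values (up to 200 steps) fell within 0.01 of a whole multiple of 1 step. They also deposited FPKM values, fragment counts per gene length and sequencing depth. The sources used here give neither strand nor annotation version nor how reads of near-identical copies were counted, so values of duplicated genes carry that limit. Each deposited file has 1 column without a name, which was not used.

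For the test of lineage, limma 3.58.1 (R 4.3.3, statmod 1.5.0; moderated variances, robust and with a mean trend) was fitted to log2(scaled count + 1) in genes with at least 10 in at least 6 libraries. The p-values were adjusted by Benjamini-Hochberg over all 16364 genes, with a threshold of 0.05. Copy shares were compared by an exact permutation test (462 arrangements, smallest possible p 0.0022), and correlations by 100000 permutations. Tests were tried on simulated data, but the outcome is not given here and no result rests on it. Replicate numbers 2, 4, 5 and 8 occur in both lineages, and the labels do not say that equal numbers are pairs. Deviations from the lineage means correlated at 0.23, 0.37, 0.10 and 0.17 between libraries of equal number. Without the correlations between unlike numbers, these values cannot show pairing. The main fit used no pairing, and the replicate number served as a block in 1 alternative only. Count models had been planned as alternatives and were not run, because the deposited values are scaled counts. The scaling alternatives used the fragments implied by the steps, and voom used the scaled counts rounded to whole numbers.

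Members, lists, the naming rule and tests were chosen with earlier results of these data known. Named genes are all enzymes and transporters, per amine the 4 receptors with the highest FPKM and the 3 with the smallest p, members with an unadjusted p under 0.05 or with a library far from the others, and of the pathway list the 5 with the smallest p. Others (htr5a, htr7, htr3a, htr3b) were named after their values were seen. Alternatives covered scaling, filters, pseudocounts, the FPKM table, voom, the replicate block and libraries left out. Omitting the libraries high in pituitary or pineal markers, or low in pallium markers, was added after seeing the data. The lists of brain region markers (pallium, hox genes, hypothalamic peptides and cerebellum) were also written after values were seen. Summed FPKM of the 3 cerebellum genes ran from 342 to 677 over the libraries. Tables were made with Python 3.11.15, pandas 2.3.3, numpy 2.4.6 and scipy 1.17.1 and plotted with matplotlib 3.10.9.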

Additional observations from a re-analysis of the deposited data

Results flagged for a closer look

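In 108 groups of 5 or 6 libraries examined, 14 had a library whose gap to its nearest neighbour was large against the range of the group (Dixon's test at the 95% level, which chance flags in about 1 in 20 groups). Among 82 groups of the tested members there were 5. In the MeHg lineage comta was high in replicate 1 at a scaled count of 65.7, against 30.8 to 43.1 in the other libraries. There th was low in replicate 4 at 20.4, against 46.9 to 59.0. In MeHg replicate 8, drd2b was high at 35.1 (others 16.2 to 22.8) and adrb2a low at 12.1 (others 21.4 to 26.8). In the control lineage htr6 was high in replicate 8 at 23.1, against 11.4 to 14.6.

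Copy shares stood out in control libraries. In control replicate 5 adra1ba held 4.77% of the FPKM of adra1ba and adra1bb, against 75.7% to 86.8% in the other control libraries. In control replicate 2 drd2a held 75.8% of drd2a and drd2b, against 33.0% to 45.0%.

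The remaining 7 were summed FPKM of marker lists. Epidermis markers were at 10794 in control replicate 4 (other controls 293.5 to 1267). Control replicate 5 was high in muscle markers at 438 (others 40.3 to 140), in pituitary markers at 63.0 (others 9.25 to 14.5) and in hypothalamic peptide genes at 3085 (others 565 to 1123). MeHg replicate 4 was high in muscle markers at 3553 (others 32.4 to 671) and in pituitary markers at 4865 (others 7.51 to 69.9). Retina and pineal markers were at 4136 in MeHg replicate 8 (others 30.4 to 391). The part of these markers in the levels of monoamine genes was not tested.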

How the results depend on the processing

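Under all 26 alternatives 0 members passed the adjusted threshold of 0.05, with a smallest adjusted p of 0.134 (htr5al), and 21 of 41 members kept the sign of their log2 fold change. Over all genes, where 44 passed, 24 passed without scaling, 71 with voom, 81 at a threshold of 0.1 and 26 without the libraries high in pituitary or pineal markers. Leaving out 1 library gave 36 to 72, the highest without control replicate 5. With the replicate number as a block, over the 8 libraries whose numbers occur in both lineages, 20 genes passed. Without the block 23 passed in those libraries, and the block changed no call of a member. Planned count models were not run. Shallow libraries limit the low receptors: in control replicate 2 a scaled count of 6.86 is 3 fragments.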

Other observations

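The reference table of names pairs 4 further rows with monoamine genes that carry no such symbol in the deposited tables, and these were not counted as members. The row given as SLC6A3, the dopamine transporter (ENSDARG00000004219), had 6.44 ± 2.53 FPKM in the control lineage and 6.30 ± 1.76 in the MeHg lineage (SD, n = 5 and 6). Over the 11 libraries its log2(FPKM + 0.1) and that of th had a Pearson r of 0.24 and a Spearman rho of 0.37 (two-sided permutation tests, p adjusted over 4 pairs = 0.905 and 0.776). With scaled counts in place of FPKM they were 0.58 and 0.69 (adjusted p = 0.233 and 0.0937). For th with dbh r was 0.16 and rho 0.16, and for dbh with slc6a2 r was 0.05 and rho -0.10 (permutation test, the same adjusted p). The rows given as ADRA1A, DRD5 and HTR4 were low, with means of 0.275, 0.295 and 1.15 FPKM in control brains and 0.671, 0.480 and 0.663 in MeHg-lineage brains.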
